A study of Mus musculus with 531 samples.

Results

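A set of 9 genes of the fibroblast growth factor (FGF) pathway were followed in single cells of mouse embryos: the ligands Fgf4 and Fgf8, the receptors Fgfr1 and Fgfr2, the feedback inhibitors Spry2, Spry4 and Dusp6, and the ETS factors Etv4 and Etv5. They were taken by name, in a list chosen with earlier results of these data known, and are 9 of the 22084 genes in the count table. FGF ligands bind receptor tyrosine kinases on neighbouring cells and switch on the RAS, RAF, MEK and ERK kinase cascade. ERK signalling then raises the transcripts of ETS factors such as Etv4 and Etv5, and of Sprouty proteins and Dusp6, which dampen the same cascade. In the blastocyst, FGF4 made by the epiblast is known to drive neighbouring inner cells towards primitive endoderm through FGFR1 and FGFR2. FGF8 is known for its part in mesoderm migration at gastrulation.

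The cells came from C57Bl/6Babr embryos of 3 stages (5 labelled embryos of E4.5, a single one of E5.5 and 2 of E6.5), profiled by a joint assay of RNA and DNA methylation in which the RNA was read by Smart-seq2. No embryo carried a genetic change or received an agent, apart from the dissection: the trophectoderm was removed by immunosurgery at E4.5, visceral endoderm and extraembryonic ectoderm were pulled away from the E5.5 epiblast, and extraembryonic tissue was dissected away at E6.5. Of 264 cells, 217 held at least 50000 reads and 2000 genes and were used: 75 from E4.5, 59 from E5.5 and 83 from E6.5. The reads of kept cells ran from 112008 to 8904445, and all FGF pathway genes were left out when the cells were clustered at E4.5 and E6.5 and named from their markers. E4.5 gave 25 epiblast-like and 50 endoderm-like cells, and E5.5 gave 51 and 8. E6.5 gave 30 epiblast-like cells, 14 that were endoderm-like and 23 that were mesoderm-like, the last all from embryo 2, beside 16 cells that took no name. Levels are CPM, counts scaled to 1000000 reads, of the reads summed over the cells of a lineage in 1 embryo, so deeply read cells weigh more, or the mean over cells of log2(CPM + 1). The embryo is the replicate, and the labels do not say whether embryos of a stage came from separate litters. The methods count fewer E4.5 embryos than the labels do; the labels were followed, and the SDs and p-values take them as separate embryos.

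The E5.5 classes were drawn from the markers themselves, so the markers check nothing there. At E4.5 the endoderm list summed to a median of 2255 CPM in epiblast-like and 7434 CPM in endoderm-like cells, and at E6.5 to 4336 and 20148 CPM. In the E6.5 epiblast-like cells 11 of 13 endoderm markers had a read in at least 50% of the cells, against 4 of 13 in those of E4.5. The mean log2(CPM + 1) of Apoa1, a lipoprotein gene of visceral endoderm, was 9.38 in the E6.5 epiblast-like cells and 0.69 in those of E4.5. Of 8 trophectoderm markers, 7 were read in at least 50% of the E6.5 epiblast-like cells and 0 in those of E4.5, and none of the epiblast markers was among the 10 genes that led that cluster. Markers of other lineages were read in the other E6.5 classes too. The mean log2(CPM + 1) of Apoa1 was 8.57 in mesoderm-like and 9.03 in unnamed cells. Of 13 endoderm markers, 12 had a read in at least 50% of the mesoderm-like cells. In the E6.5 endoderm-like cells this held for 8 of 9 epiblast and 7 of 8 trophectoderm markers. The part of these markers in the E6.5 results was not tested. In E4.5 embryo 5, 6 of 18 cells held at least 10 reads of Y-linked genes and 10 held none; whether that label covers more than 1 embryo was not tested.

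Dusp6, Etv5 and Spry2 were the response genes that differed between lineages at E4.5, and the bases before their transcription start sites are printed here so that their ETS sites can be seen beside these values. The sequences are from a table of RefSeq promoters on GRCm38.p6, in which 5 of the 9 genes were matched, and show the 250 bases before the start on the gene's own strand, 5′ to 3′. Capitals mark the ETS core GGAAG or its reverse CTTCC, which 64.1% of all 32851 promoter windows of that length held on either strand. Dusp6 lies at chr10:99262981-99263230 on the + strand, Etv5 has a start at chr16:22439571-22439820 and another at chr16:22438369-22438618, both on the − strand, and Spry2 lies at chr14:105896820-105897069 on the − strand.
Dusp6: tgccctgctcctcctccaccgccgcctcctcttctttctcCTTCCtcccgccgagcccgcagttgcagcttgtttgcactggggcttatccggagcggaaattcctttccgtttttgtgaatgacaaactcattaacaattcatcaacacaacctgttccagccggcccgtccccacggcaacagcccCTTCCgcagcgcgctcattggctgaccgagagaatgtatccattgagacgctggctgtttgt
Etv5, first start: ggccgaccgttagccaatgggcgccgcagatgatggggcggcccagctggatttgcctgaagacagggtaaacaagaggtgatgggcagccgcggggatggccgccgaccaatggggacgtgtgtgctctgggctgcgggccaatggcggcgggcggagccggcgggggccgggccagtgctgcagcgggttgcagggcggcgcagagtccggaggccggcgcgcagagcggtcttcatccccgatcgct
Etv5, second start: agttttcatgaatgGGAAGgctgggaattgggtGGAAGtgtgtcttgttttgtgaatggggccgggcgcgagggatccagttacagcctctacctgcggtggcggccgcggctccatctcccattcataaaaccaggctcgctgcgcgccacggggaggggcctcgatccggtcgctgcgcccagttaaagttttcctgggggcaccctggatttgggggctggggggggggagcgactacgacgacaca
Spry2: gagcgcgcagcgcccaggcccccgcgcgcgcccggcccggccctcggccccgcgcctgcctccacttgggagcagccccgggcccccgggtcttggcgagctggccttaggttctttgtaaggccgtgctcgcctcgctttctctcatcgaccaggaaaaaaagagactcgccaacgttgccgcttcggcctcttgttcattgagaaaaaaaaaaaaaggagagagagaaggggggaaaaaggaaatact
The Dusp6 window and the second Etv5 window held 2 matches each, and the first Etv5 window and the Spry2 window held 0. The longer form CCGGAA, or TTCCGG on the other strand, was in 12% of all windows and in 0 of these 4; both forms share the letters GGAA. A match is a run of letters and not a bound site.

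The first comparison asked how the ligand, receptor and response sides differ between both lineages within E4.5 embryos. Fgf4, Fgfr1, Etv5, Dusp6 and Spry2 were lower in endoderm-like cells and Fgfr2 was higher, so that 6 of the 9 genes passed the test, against 12.7% of the 12580 genes tested. Fgf8, Spry4 and Etv4 did not pass. The tests are edgeR's quasi-likelihood test on the summed counts with the embryo as a term, with Benjamini-Hochberg adjustment over all genes tested, and the fold changes are log2. For each of the 6 genes that passed, all 5 embryos moved the same way and the 2 lineages did not overlap across embryos, which held for 3.89% of all genes tested in the lower direction and 6.41% in the higher.

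On the ligand side, Fgf4 stood at 105, 71.1, 124, 129 and 120.1 CPM in the epiblast-like cells of embryos 1 to 5. In the endoderm-like cells of the same embryos it stood at 0, 1.14, 0, 0.139 and 1.69 CPM. The lineages were thus far apart in every embryo, with means of 109.8 ± 23.4 and 0.594 ± 0.776 CPM (SD, n = 5) and a log2 fold change of −8.33 ± 0.92 (SE, adjusted p = 2.5e-05). Fgf4 had a read in 92% of the epiblast-like cells (23 of 25, exact 95% interval 74% to 99%) and in 8% of the endoderm-like cells (4 of 50, 2.22% to 19.2%). With each cell thinned to 50000 reads the shares were 84% and 2%. Intervals on counts and shares cover counting error only, since the reads carry no molecular identifiers.

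Fgf8 was close to absent from the E4.5 epiblast-like cells, where 3 reads in 1 cell of embryo 3 were the only ones. In endoderm-like cells it was listed at 2.73 CPM in embryo 1 and 19.6 CPM in embryo 5, with 0 reads in the other three, so the embryos of this lineage disagreed. Its log2 fold change of 3.62 ± 2.48 did not pass (adjusted p = 0.375). Leaving out an embryo moved the fold change from 0.70 (without E4.5 embryo 5) to 8.98 (without E4.5 embryo 3).

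The receptors stood in opposite order. Fgfr1 was at 56.9, 37.5, 70.7, 27.8 and 58.6 CPM in the epiblast-like cells of embryos 1 to 5, and at 12, 14.3, 10.4, 7.70 and 0.723 CPM in their endoderm-like cells. Every epiblast-like value lay above every endoderm-like value (log2 fold change −2.86 ± 0.71, adjusted p = 0.0141). The call was lost without E4.5 embryo 3, with nearly the same fold (−2.82, adjusted p = 0.0522). Fgfr2, the receptor long linked to primitive endoderm, was at 59, 54.9, 84, 40.8 and 49.4 CPM in endoderm-like cells and at 6.02, 0.487, 1.88, 3.60 and 15.1 CPM in epiblast-like cells. Its epiblast-like level was lowest in embryo 2 and highest in embryo 5, still below every endoderm-like value (log2 fold change 3.78 ± 0.79, adjusted p = 0.00498).

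Receptor reads also differed cell by cell. Among the 50 endoderm-like cells, 25 had reads of Fgfr2 and not Fgfr1, 1 had Fgfr1 and not Fgfr2, 15 had both and 9 had neither. Among the 25 epiblast-like cells, 14 had Fgfr1 alone, 1 had Fgfr2 alone, 7 had both and 3 had neither. Reads of Fgf4 and Fgfr2 met in 7 of the 25 epiblast-like cells and in 4 of the 50 endoderm-like cells. Median depth was 791565 reads in the former and 1028345 in the latter, so the endoderm-like cells were read more deeply.

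Among the feedback genes, Spry2, a Sprouty inhibitor of receptor tyrosine kinase signalling, was at 123, 207, 146, 138 and 425 CPM in epiblast-like cells and at 60.7, 84.7, 70, 68.4 and 84.1 CPM in endoderm-like cells. It was read in all 25 epiblast-like cells and in 49 of the 50 endoderm-like cells, so the difference was one of level (log2 fold change −1.48 ± 0.31, adjusted p = 0.00522). Dusp6, a phosphatase that acts on ERK, was at 55.5, 48.7, 96, 61.7 and 27.3 CPM in epiblast-like cells against 20.8, 13.2, 8.55, 12 and 11.9 CPM in endoderm-like cells. The lowest epiblast-like embryo lay above the highest endoderm-like one (log2 fold change −2.19 ± 0.49, adjusted p = 0.00727). Spry4, another Sprouty gene, ranged from 28.8 to 119 CPM in epiblast-like cells and from 5.11 to 53.1 CPM in endoderm-like cells. Its ranges overlapped through embryo 3, the only embryo in which endoderm-like cells held more in summed CPM (in mean log2(CPM + 1) embryo 2 did too, at 4.63 against 3.81) (log2 fold change −1.36 ± 0.72, adjusted p = 0.238).

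Of the ETS factors, Etv5 was at 194, 288, 257, 154 and 131 CPM in epiblast-like cells and at 29.4, 38.3, 9.07, 21.6 and 15.5 CPM in endoderm-like cells. No embryo came near an overlap (log2 fold change −3.37 ± 0.38, adjusted p = 2.63e-05). Etv4, its close relative, was at 31.8, 89.5, 112, 43.6 and 6.89 CPM in epiblast-like cells against 22.5, 27.5, 3.37, 0.523 and 41.4 CPM in endoderm-like cells. Embryo 5 ran opposite to the other four in summed CPM (in mean log2(CPM + 1) embryo 2 stood at 4.52 and 4.55), and Etv4 did not pass (log2 fold change −2.34 ± 1.24, adjusted p = 0.239), although DESeq2 called it (adjusted p = 0.0293).

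**Figure D1:**
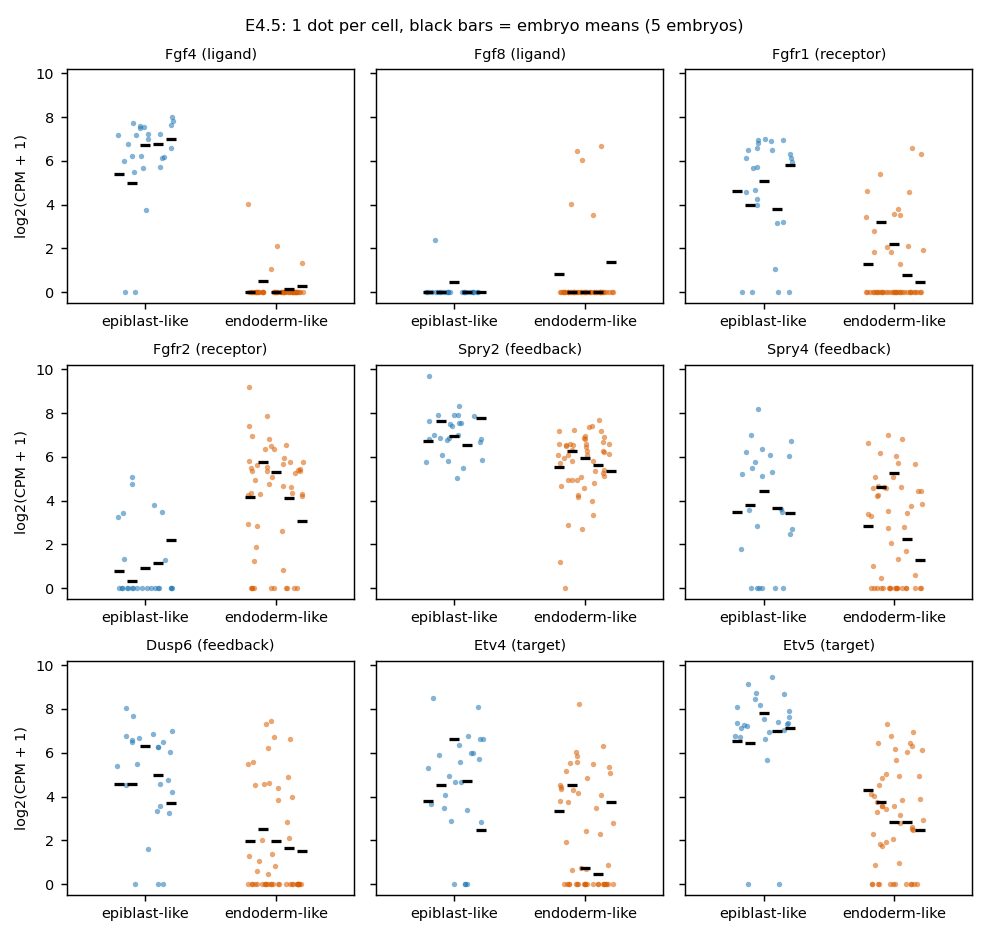
The 9 genes in the E4.5 cells, 25 epiblast-like and 50 endoderm-like; each dot is a cell, the y axis is log2(CPM + 1), and black bars are the means of the 5 embryos. Fgf4 sits near 0 in all but 4 endoderm-like cells, Fgfr2 is the 1 gene that passed the test in the opposite direction, and Spry2 is read in nearly every cell of both lineages.

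When the E4.5 cells were instead grouped by Ward clustering of the markers alone, 6 of the 25 epiblast-like cells joined the endoderm. Fgf4 (log2 fold change −4.35, adjusted p = 0.0021), Fgfr2 (4.90, 0.0125) and Etv5 (−2.89, 0.000181) stayed past the threshold, and Fgfr1 (−1.92, 0.0822), Spry2 (−0.69, 0.22) and Dusp6 (−1.84, 0.0516) did not. Those 6 cells held both sets of markers, with a median summed level of 4105 CPM for the endoderm list and 3089 CPM for the epiblast list. Of the 6, 5 had Fgf4 reads and 4 had Fgfr2 reads; of the other 19, 18 and 4 did. The embryos came in 2 labelled sets, P1 (embryos 1 and 2) and P2 (embryos 3 to 5). Within both sets the mean log2(CPM + 1) was lower in endoderm-like cells for Fgf4 (difference −4.93 and −6.69), Fgfr1 (−2.03 and −3.76), Spry2 (−1.28 and −1.45), Dusp6 (−2.33 and −3.28) and Etv5 (−2.47 and −4.60), and higher for Fgfr2 (4.39 and 2.74).

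Compared per kilobase of exon, so that genes can be set side by side, the level in E4.5 epiblast-like cells was 99.6 CPM per kb for Spry2, 49.9 for Etv5, 34.4 for Fgf4, 18.5 for Dusp6, 18.3 for Etv4, 10.8 for Spry4 and 5.09 for Fgfr1. In endoderm-like cells it was 35.3 CPM per kb for Spry2, 6.14 for Etv4, 5.58 for Fgfr2, 5.55 for Etv5, 4.77 for Spry4, 4.24 for Dusp6 and 0.913 for Fgfr1. Fgfr1 in the epiblast-like cells and Fgfr2 in the endoderm-like cells thus stood at similar levels per length, with SDs of 1.75 and 1.57 CPM per kb over 5 embryos.

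The rest of the pathway was read from a list of 66 genes, 65 of them in the table and 56 of those outside the 9. Of the 43 others tested at E4.5, 5 were higher and 2 lower in endoderm-like cells, 16.3% of them beside the 12.7% of all genes, and their median log2 fold change was 0.20 beside 0.14 for all genes tested. Fgfr3, a further FGF receptor, was higher (114 ± 55.6 CPM against 11.2 ± 15.3, SD, n = 5; log2 fold change 4.15, adjusted p = 0.00917), as was Klb, the co-receptor for endocrine FGFs (92.4 ± 39.9 against 8.29 ± 12.5; 4.92, 0.00298). Of the 6 tested genes on the receptor side, 3 were higher, 1 was lower and 2 did not pass, Fgfr1 and Fgfr2 included.

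On the ligand side, Fgf3 and Fgf10 were higher in the endoderm-like cells. Fgf3 was at 76.6 ± 54 CPM against 6.09 ± 5.15 (log2 fold change 3.72, adjusted p = 0.00688), and Fgf10 at 78.6 ± 33.3 CPM against 15.1 ± 23 (3.88, 0.00925). Flrt3, a membrane protein that binds FGF receptors, was at 678 ± 167 CPM against 59.3 ± 48.8 (3.86, 0.00225). On the target side Etv1, the remaining member of the PEA3 subfamily of ETS factors, was at 27.3 ± 9.98 CPM in epiblast-like cells and held 2 reads in all endoderm-like cells together, a ratio of 833 (exact interval 230 to 6895). Of the 19 genes of the kinase cascade, none passed in either direction, beside 12.7% of all genes tested. Their log2 fold changes ran from −1.17 for Braf to 3.26 for Frs2, with a smallest adjusted p of 0.0562.

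**Figure D2:**
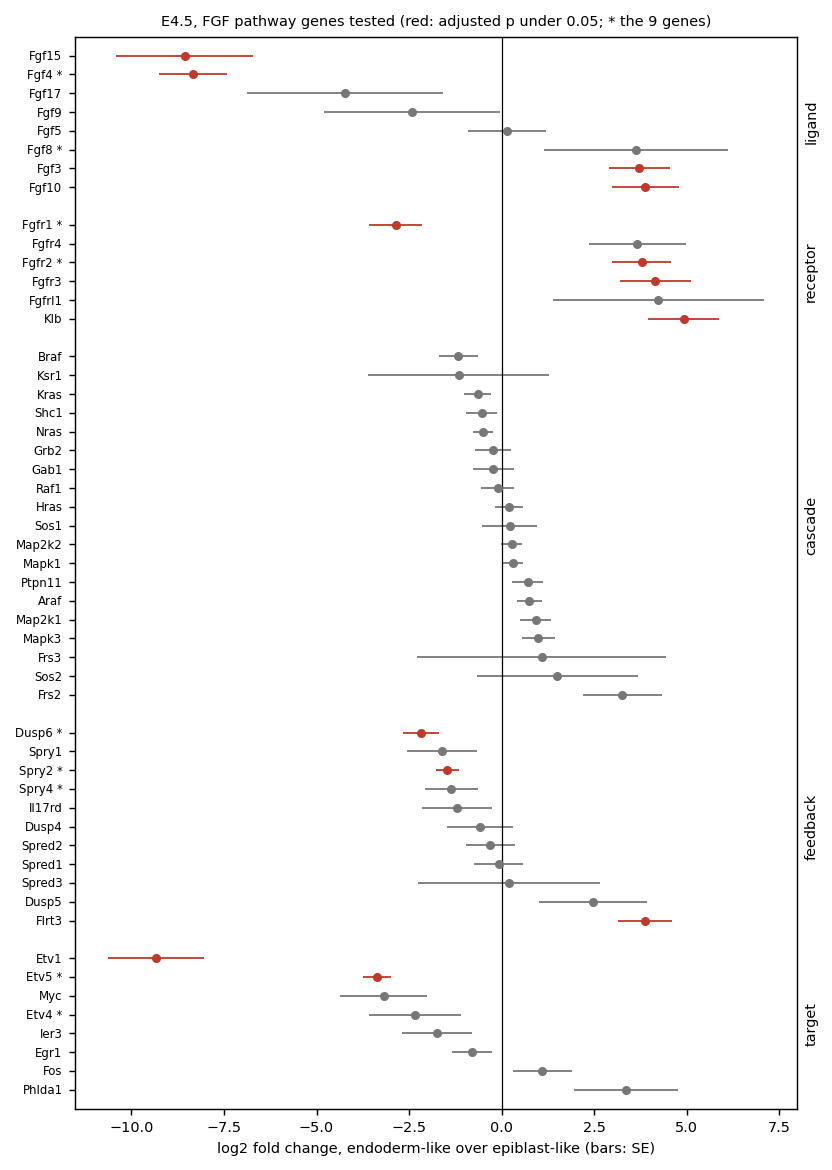
Log2 fold change of endoderm-like over epiblast-like cells at E4.5 for the 52 pathway genes tested, by side of the pathway, with SE bars; red marks an adjusted p under 0.05 and an asterisk the 9 genes. On the receptor side 3 genes are red above 0 and Fgfr1 is red below it, and no gene of the kinase cascade is red.

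Co-variation among cells of 1 lineage was described by correlations. In the 25 E4.5 epiblast-like cells the highest correlation of any pair among the 9 was between Fgf4 and Etv5 (Pearson r = 0.81 across cells; 0.55 and 0.75 within the 2 embryos with 6 such cells). The value over all 25 cells rested on 2 cells, of embryos 1 and 2, that had no read of either gene, and in the other 23 cells r was −0.06. The higher of the within-embryo values, that of embryo 1, turned to −0.67 without its cell of that kind, while embryo 4, at 0.55, held none. The 10 pairs among the 5 response genes had a median r of 0.11 there, 0.08 in the 50 E4.5 endoderm-like cells, 0.22 in the 51 E5.5 epiblast-like cells and 0.41 in the 30 E6.5 epiblast-like cells, where all 10 pairs were positive (0.19 to 0.62). In that last class each response gene was also lower in more deeply read cells (r with log2 reads from −0.65 for Spry2 to −0.31 for Etv4), against −0.17 to 0.23 at E4.5 and −0.52 to 0.27 at E5.5, and the part of depth in the correlations was not tested. Cells of an embryo share their preparation and are not independent, so these values are descriptions. At E4.5 all 5 response genes were read in 15 of 25 epiblast-like cells and in 9 of 50 endoderm-like cells; thinned to 50000 reads, this held for 8 and 0 cells.

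At E5.5 only 1 embryo was available, and its endoderm-like cells were compared with its epiblast-like cells without a test. Each ligand lay on the side of its higher E4.5 mean, Fgf8 in endoderm-like and Fgf4 in epiblast-like cells. Fgf8 was at 458 CPM in the 8 endoderm-like cells (exact Poisson interval 448 to 469) and at 11.4 CPM in the 51 epiblast-like cells (10.7 to 12.2), which is 40.2-fold. It had a read in 7 of 8 endoderm-like cells and 13 of 51 epiblast-like cells, and per length its endoderm-like level of 339 CPM per kb was above that of each of the other 8 genes in every lineage and stage. Fgf4 had 0 reads in the endoderm-like cells and 47.9 CPM in the epiblast-like cells, at least 249.9-fold lower taking 3 counts as the floor. By the same floor, 0 of 8 cells allows a share of up to 37.5%.

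The receptors and most response genes were low in the E5.5 endoderm-like cells. Fgfr1 was at 1.53 CPM (0.983 to 2.28) against 32 CPM (30.8 to 33.3) in epiblast-like cells, and 5 of the 8 cells had reads of neither Fgfr1 nor Fgfr2. Dusp6 and Etv5 stood at 1.79 CPM each in endoderm-like cells, against 71.6 and 81.8 CPM, and Spry2 at 2.04 against 24.7 CPM. Etv4 was higher in summed CPM, at 43.9 CPM (40.7 to 47.3) against 12.7 CPM (11.9 to 13.5), but only 2 of 8 endoderm-like cells held any of its reads, against 26 of 51 epiblast-like cells, and as the mean over cells of log2(CPM + 1) it was slightly lower, at 1.75 against 1.92. Spry4 was at 8.18 and 9.21 CPM, in the opposite order to its means over cells of log2(CPM + 1), 2.28 and 1.501, and had reads in 5 of 8 and 20 of 51 cells. Of the 7 genes with at least 10 CPM in a lineage, 5 were at least 4-fold lower and 1 at least 4-fold higher in endoderm-like cells, beside 24.7% and 14.1% of all 8063 such genes. The median number of genes read was 4223.5 in the endoderm-like and 5599 in the epiblast-like cells.

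**Figure D3:**
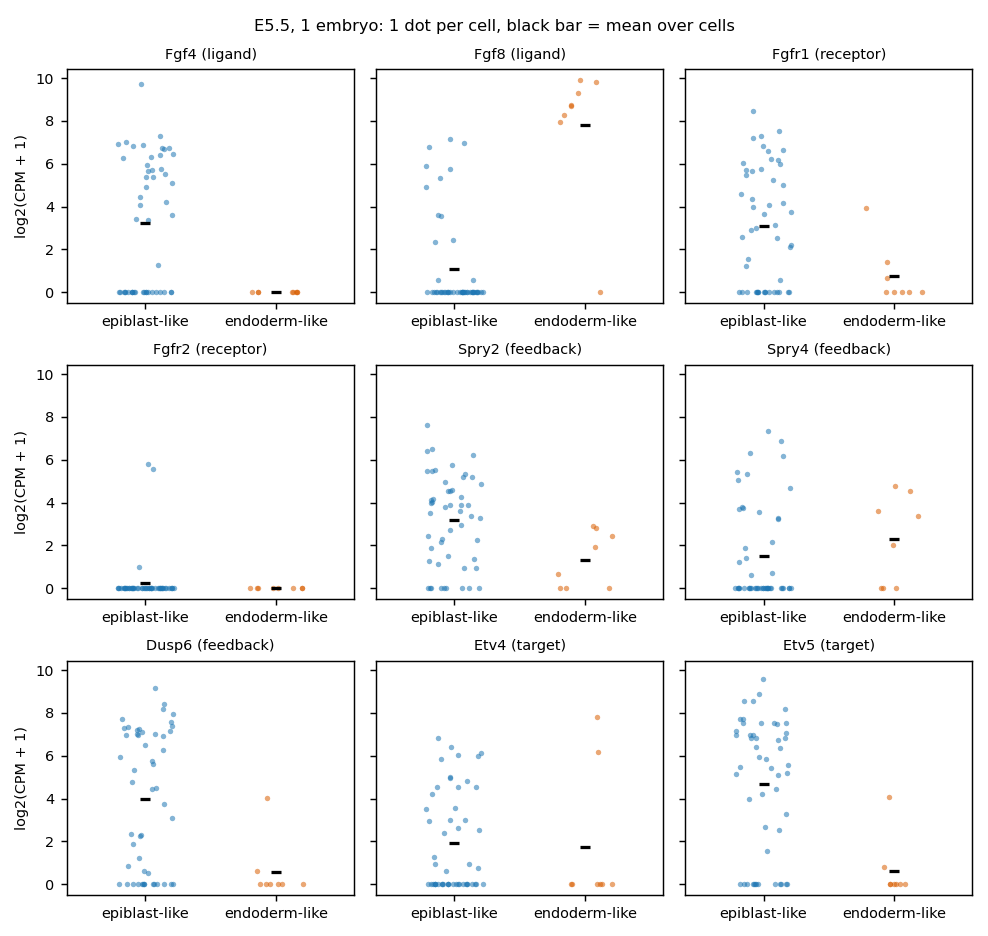
The 9 genes in the E5.5 embryo, with 51 epiblast-like cells beside 8 that were endoderm-like; each dot is a cell, the y axis is log2(CPM + 1), and the black bar is the mean over cells. Fgf8 is high in 7 of 8 endoderm-like cells, while Fgf4 and Fgfr2 have no read there.

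Within the E5.5 epiblast-like cells the pathway was uneven. Fgf4 had a read in 29 of 51 cells (56.9%, exact interval 42.2% to 70.7%), with a median of 11.3 CPM and a maximum of 853 CPM. Etv5 had a read in 38 cells and Dusp6 in 37, and Fgfr2 in 3. Fgf5, another ligand and a gene of the primed epiblast, was at 39.2 CPM in epiblast-like and 137 CPM in endoderm-like cells; it is outside the naming rule and was chosen after its values were seen.

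Across stages Fgf4 fell and Fgf8 rose in the epiblast-like cells between E4.5 and E6.5. Under Ward clustering of the markers, and under clustering of scaled values, no E6.5 cells were named epiblast-like. Those groupings thus gave no value for changes to E6.5 in this lineage. Each stage came in labelled sets of its own (P1 and P2 at E4.5, P11.P6.P10 at E5.5, P0 at E6.5), and the median number of genes read per kept cell was 6985, 5242 and 9304, so stage and set cannot be told apart in any comparison between stages. Fgf4 went from the 71.1 to 129 CPM of the E4.5 embryos to 47.9 CPM at E5.5 and to 3.89 and 4.65 CPM at E6.5. The E6.5 embryos lay below all others, and Fgf4 fell by 4.81 on the log2 scale from E4.5 to E6.5 (SE 0.61, adjusted p = 0.00108). The lone E5.5 embryo was assumed to vary like the others, so no test against that stage is read and only fold changes are given. In simulated data the test between E5.5 and E6.5 recovered 0.5% of the genes changed 4-fold, and most of its few calls were false. The log2 fold change of Fgf4 was −1.14 from E4.5 to E5.5 and −3.67 from E5.5 to E6.5. By limma on mean log2 levels the latter was −1.67.

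Fgf8 moved in the opposite direction. Its 3 reads in all E4.5 epiblast-like cells stood against 11.4 CPM at E5.5 and 116 and 52.9 CPM in E6.5 embryos 1 and 2, where it was read in 30 of 30 cells. The pooled ratio of E6.5 to E4.5 was 571 (exact interval 195 to 2769, counting error only), and the gene rose in the test (fitted log2 fold change 9.0 ± 1.25, adjusted p = 0.0019), although with so few E4.5 reads the fitted fold depends on the prior count. The level was 18.1 and 0 CPM in the E6.5 endoderm-like cells of the same embryos. Without E6.5 embryo 1 the call was lost with a fold nearly as large (8.36, adjusted p = 0.0885), and over all kept cells of each stage it was lost with a smaller one (3.503, 0.137). From E4.5 to the single E5.5 embryo the pooled ratio was 78.2 (26.7 to 380.1, counting error only). From E5.5 to E6.5 the log2 fold change of Fgf8 was 2.72 as fitted and 4.15 by limma, with no test read.

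No receptor or response gene of the epiblast-like cells passed edgeR's test between stages as fitted here, and some did under alternatives. Of the 9 genes, 2 passed between E4.5 and E6.5 (2.21% of the 13275 genes tested), 1 between E5.5 and E6.5 (0.241%) and 0 between E4.5 and E5.5 (0.369%). Fgfr1 was at 50.3 ± 17.3 CPM at E4.5 (SD, n = 5), 32 at E5.5 and 57.5 ± 22.6 at E6.5 (n = 2). Fgfr2 was at 0.487 to 15.1 CPM in the E4.5 embryos, 1.72 at E5.5 and 9.96 and 20.8 at E6.5, so the stages overlapped. It did not pass from E4.5 to E6.5 (1.34 ± 1.38, adjusted p = 0.711) but did by limma (adjusted p = 0.0477). From E4.5 to the single E5.5 embryo the log2 fold change of Fgfr2 was −1.64. Over all kept cells, endoderm-like ones included, it was −4.50. Dusp6 was at 57.9 ± 25, 71.6 and 70.5 ± 9.89 CPM. The log2 fold changes of these genes from E4.5 to E6.5 were 0.07 ± 0.57 for Fgfr1 and 0.18 ± 0.53 for Dusp6. Etv5 was at 205 ± 66.8, 81.8 and 119.2 ± 0.6 CPM. Spry2 was at 208 ± 126, 24.7 and 60.9 ± 7.10 CPM. Its change from E4.5 to the single E5.5 embryo was −3.02. That from E4.5 to E6.5 (−1.90 ± 0.56, adjusted p = 0.104) did not pass, but did without the low-count filter (0.0453). By DESeq2 Spry2 (adjusted p = 0.0077), Spry4 (0.0142) and Etv4 (0.0292) passed from E4.5 to E6.5. Spry2 (0.0241) and Etv4 (0.0465) also did in a fit without the E5.5 embryo that paired embryos by number (the replicate block). Embryos paired in this way share only a number. With so few embryos a gene that did not pass may still differ. Of the other pathway genes, 1 of 45 tested passed between E4.5 and E6.5: Egr1, an immediate early gene, was at 98.9 CPM (range 11 to 206) at E4.5 and 0.39 CPM (0.366 to 0.415) at E6.5 (log2 fold change −8.05, adjusted p = 0.00812).

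**Figure D4:**
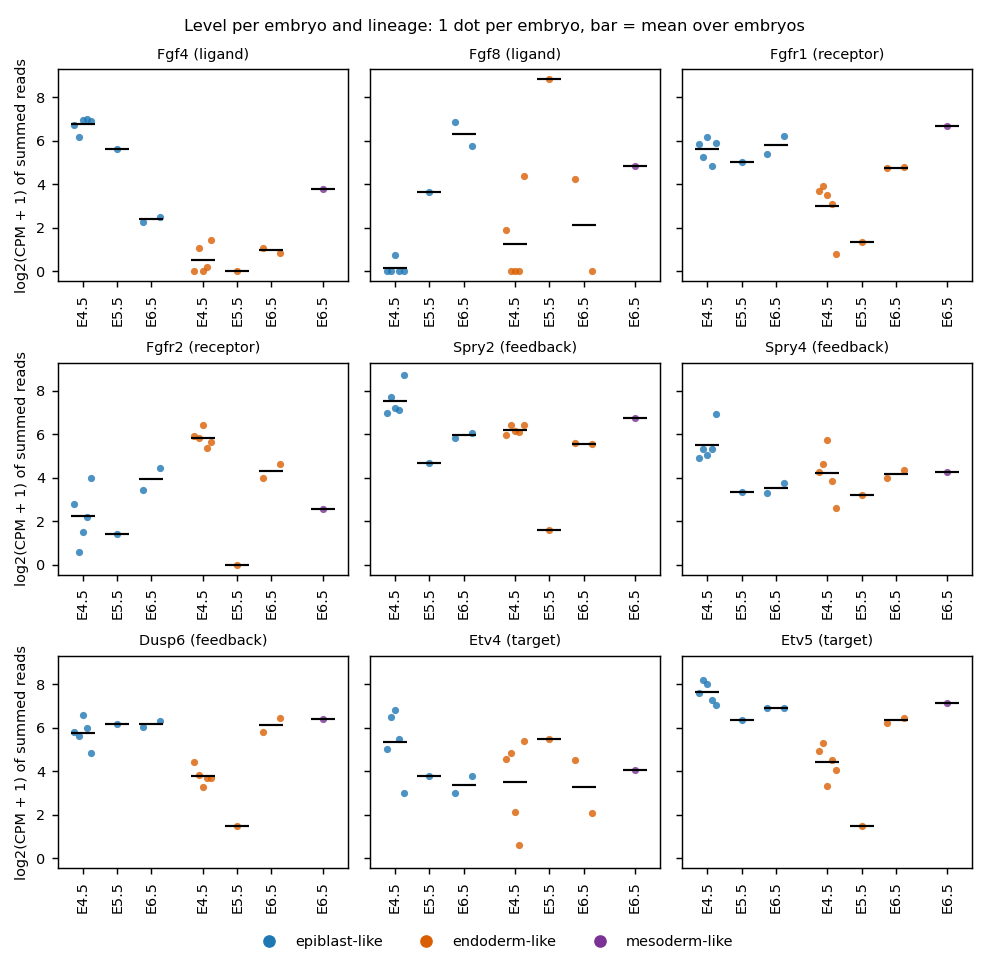
Level of the 9 genes per embryo as log2(CPM + 1) of the summed reads, for epiblast-like cells of each stage (blue), endoderm-like cells of each stage (orange) and E6.5 mesoderm-like cells (purple); dots are embryos and bars are means. In epiblast-like cells Fgf4 falls to 3.89 and 4.65 CPM at E6.5 while Fgf8 climbs to 116 and 52.9 CPM; in endoderm-like cells Fgf8 is at 458 CPM in the E5.5 embryo.

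In endoderm-like cells Dusp6 was the 1 gene of the 9 to pass between E4.5 and E6.5, where 3.98% of 13341 genes did. It was at 13.3 ± 4.54 CPM in 5 embryos at E4.5 and at 54.8 and 87 CPM at E6.5 (log2 fold change 2.31 ± 0.66, adjusted p = 0.0498). The call was lost in 6 of 8 fits that left out an embryo, with a largest adjusted p of 0.536 without E6.5 embryo 2. Etv5, at 22.8 ± 11.5 and then 73.9 and 87 CPM, did not pass (1.72 ± 0.62, adjusted p = 0.141), nor did Fgfr2, at 57.6 ± 16.2 and then 14.7 and 24.2 CPM (−1.68 ± 0.64, adjusted p = 0.164). With lineages from Ward clustering of the markers the Dusp6 call was lost (1.34, adjusted p = 0.263) and Etv5 passed (2.16, 0.00938), as it did by limma (2.88, 0.0104); DESeq2 called Fgfr2 (0.0489). Of the 43 other pathway genes tested, 1 rose and 4 fell. Flrt3 fell from 678 to 99.7 CPM (adjusted p = 0.000133), Fgfr3 from 114 to 22.4 CPM (0.0163), Egr1 from 47.5 to 3.97 CPM (0.0256), and Fgf3 from 76.6 CPM to 1 read (ratio 1020, exact interval 183 to 40284). E6.5 embryo 2 gave 2 of the 14 E6.5 endoderm-like cells. In the single E5.5 embryo Dusp6 and Etv5 stood at 1.79 CPM each in endoderm-like cells, below both other stages. Of 9 epiblast markers, 8 had a read in at least 50% of the E6.5 endoderm-like cells and 4 in those of E4.5. Their sums had medians of 639 and 810 CPM, and their part in these changes was not tested.

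At E6.5 none of the 9 genes passed between lineages. In simulated data this comparison recovered 11.5% of the genes changed 4-fold, so a gene that did not pass may still differ. No gene in the table passed between endoderm-like and epiblast-like cells (0% of 12580; 321 at an unadjusted p under 0.05, and 21 by DESeq2 after adjustment). Fgf8 was at 18.1 and 0 CPM in the endoderm-like cells of embryos 1 and 2 and at 116 and 52.9 CPM in their epiblast-like cells (log2 fold change −4.65 ± 2.29, adjusted p = 1), and limma on mean log2 levels called it (−3.49, adjusted p = 0.0216). Etv5 was at 73.9 and 87 CPM against 119.7 and 119 CPM, and Dusp6 at 54.8 and 87 against 63.5 and 77.5 CPM, where the embryos disagreed in sign; in mean log2(CPM + 1) both were lower in endoderm-like cells (−0.36 and −0.10). Fgfr2 was at 14.7 and 24.2 CPM against 9.96 and 20.8 CPM, but in mean log2(CPM + 1) embryo 2 went the other way (2.48 against 2.97). Endoderm markers were read in all classes of this stage, and epiblast markers in its endoderm-like cells, as given above.

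The change of the lineage difference from E4.5 to E6.5 was tested directly and passed for 0 of the 9 genes (0.31% of 12580). The smallest adjusted p-values were those of Etv5 (change 2.67 ± 0.65, adjusted p = 0.124) and Fgf4 (6.19 ± 1.62, adjusted p = 0.164), for which the E4.5 difference was larger. DESeq2 put both past the threshold, at 0.00235 and 0.0012, as did the fit without the low-count filter, at 0.0155 and 0.00178, and limma called Fgf4 (4.90, 0.0285) and Fgf8 (−3.83, 0.0285).

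Mesoderm-like cells were found in E6.5 embryo 2 only, so they were compared with the 15 epiblast-like cells of the same embryo without a test. Over the other E6.5 cells their cluster had 7 mesoderm markers raised, and also 5 endoderm and 4 epiblast markers. Fgf8 was at 27.7 CPM (25.3 to 30.4) in the 23 mesoderm-like cells and 52.9 CPM (50 to 55.9) in the epiblast-like cells, and was read in every cell of both. As the mean over cells of log2(CPM + 1) the order was the other way, at 4.77 in mesoderm-like and 4.56 in epiblast-like cells. Fgf4 was at 12.6 CPM (11 to 14.5) and 4.65 CPM (3.83 to 5.59), with reads in 18 of 23 and 8 of 15 cells. Fgfr1 reached 103 CPM in mesoderm-like cells against 73.5 CPM, and Fgfr2 stood at 4.88 CPM against 20.8 CPM, 4.26-fold lower. As means over cells of log2(CPM + 1) the Fgfr2 levels were closer, at 1.94 and 2.97, with reads in 15 of 23 and 11 of 15 cells. Trophectoderm markers summed to a median of 25 CPM in these mesoderm-like cells and 64.4 CPM in these epiblast-like cells. Without the 5 epiblast-like cells that a higher clustering resolution set apart (median 123 CPM of those markers), the median of the other 10 was 21.6 CPM and Fgfr2 stood at 22.8 CPM. Fgfr2 was the 1 gene of the 9 past 4-fold, lower, beside 2.69% of 8762 genes in that direction, and 0 were past it in the other, beside 3.44%.

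The response genes of the mesoderm-like cells lay within 2-fold of the epiblast-like cells. Spry2 was at 107 against 65.9 CPM, Spry4 at 18.2 against 12.5 CPM, Dusp6 at 82.6 against 77.5 CPM, Etv4 at 15.6 against 12.6 CPM and Etv5 at 139 against 119 CPM. All 5 were read together in 19 of 23 mesoderm-like cells. Fgf3, outside the naming rule for this comparison and chosen after its values were seen, had reads in 22 of 23 mesoderm-like cells (108 CPM) and 1 read in the 15 epiblast-like cells.

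Over the 17 sums of an embryo and a lineage, the genes whose log2(CPM + 1) was most like that of Fgf4 among 9699 genes were Adam23 (r = 0.95), Soga3 (0.94), Nlrp4f (0.94), Enox1 (0.93) and Plekha4 (0.92). For Fgfr2 they were Fgfr3 (0.95), B3galnt1 (0.91), Habp2 (0.91), Ralgapa2 (0.90) and Carmil1 (0.89). Fgf4 and Fgfr2 correlated at −0.58. Sums of an embryo share its libraries, and these values are descriptions with no test.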

How the data were processed

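RNA was measured in single mouse embryo cells by Smart-seq2, within a joint RNA and methylation assay. Per the labels and the study's methods, reads were trimmed with Trim Galore, aligned to GRCm38 with HISAT2 2.1.0 and counted per gene with featureCounts; the annotation and strand setting are not given in the sources used here. The deposited values are raw read counts per gene and cell, with no molecular identifiers. The methylation files were not analysed here.

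Cells with at least 50000 reads and 2000 genes were kept. Lineages came from Leiden clustering (scanpy 1.11.5, 2000 variable genes, 20 components, resolution 0.5) at E4.5 and E6.5, and from Ward clustering of the markers at E5.5; FGF pathway genes took no part. Of 20 random seeds, 20 gave the same lineages at E4.5 and 17 at E6.5. Unscaled values and cell_ranger variable genes were chosen after scaled values with seurat variable genes had named no E6.5 epiblast-like cells. Doublets were not called. Counts were summed per embryo and lineage and tested by edgeR's quasi-likelihood test (version 4.0.16, TMM scaling, low-count filter, threshold 0.05); the lineage fit held every embryo as a term. In simulated data with 200 genes changed 4-fold, the test recovered 53.5% of them between E4.5 lineages and 11.5% between E6.5 lineages. From E4.5 to E6.5 it recovered 16.5% in epiblast-like and 31.5% in endoderm-like cells. Alternatives were DESeq2 1.42.0, limma 3.58.1 on mean log2 values, other scaling, filters and lineages, and leaving out each embryo. The genes, lists and tests were chosen with earlier results of these data known. Named pathway genes are those past the threshold with at least 10 CPM in a group, at most 12 per comparison; Fgf15, called in 2 comparisons, was below it.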

Additional observations from a re-analysis of the deposited data

Results flagged for a closer look

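A gap test for an outlying embryo was run on the mean log2(CPM + 1) of the 9 genes in both E4.5 lineages, in 18 sets of 5 embryos. It marked 1: Fgf8 in the epiblast-like cells of E4.5 embryo 3, at 0.481, where the other 4 embryos had 0 reads. With 4 values tied at 0 any read in the fifth embryo would be marked, so nothing is read from it.

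The 16 unnamed E6.5 cells entered no comparison. The shares of these cells with a read are listed without the share for all genes, so nothing is drawn from them. Fgf4 had reads in 12.5% of the cells. Reads were found in 81.25% of these cells for Dusp6 and for Etv5, in 75% for Fgf8, Fgfr1 and Spry2, in 62.5% for Etv4, in 50% for Fgfr2 and in 43.75% for Spry4. Their median depth was 4187215 reads, above that of the named E6.5 classes, and their mean levels were lower than in the E6.5 epiblast-like cells for each of the 9 genes.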

How the results depend on the processing

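The 63 results of the 9 genes were recomputed under other settings, which gave 940 values. Of these, 864 kept their direction and side of the threshold, 22 lost the call, 27 gained it and 27 changed sign. Most of the 63 results had not passed to begin with, so most of the 864 are results that stayed uncalled. The cause of these shifts was not tested. DESeq2 moved the number of called genes from 1600 to 3032 (E4.5 lineages), 0 to 21 (E6.5 lineages), 39 to 283 (change of the lineage difference), 49 to 526 (epiblast-like, E5.5 against E4.5), 294 to 954 (E6.5 against E4.5), 32 to 211 (E6.5 against E5.5) and 531 to 819 (endoderm-like, E6.5 against E4.5). Without the low-count filter the last 6 became 26, 220, 174, 651, 83 and 860, and with limma on mean log2 values 114, 139, 113, 1993, 81 and 2123. RLE scaling gave 2 calls for the E6.5 lineages and 61 for the change, and stricter cells gave 2 for the E6.5 lineages. Ward lineages named no epiblast-like cells at E6.5, so those comparisons had no value. Their E4.5 fit, which thus also lost the E6.5 sums, gave 990 calls. Clustering of scaled values kept the E4.5 lineages, lost the same sums and gave 1138. All kept cells gave 272, 1008 and 59 for the 3 epiblast-like stage comparisons. A higher clustering resolution at E6.5 (0.8), chosen after seeing the data, moved 11 of the 30 epiblast-like cells into a cluster with 8 of 8 trophectoderm markers raised; it gave 8 calls for the E6.5 lineages and 77 for the change, and kept the calls of Fgf4 (−4.75, adjusted p = 0.000789) and Fgf8 (9.23, 0.000474) from E4.5 to E6.5. Clustering of scaled values, also added after seeing the data, gave the same E4.5 lineages, put 11 of the 30 E6.5 epiblast-like cells with the endoderm and left 19 unnamed, so no E6.5 epiblast-like value could be had; in endoderm-like cells it lost Dusp6 from E4.5 to E6.5 (2.11, adjusted p = 0.0655) and gained Etv5 (2.50, 0.0145).

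Leaving out 1 embryo gave 1082 to 1419, 0 to 2, 8 to 50, 24 to 63, 88 to 344, 15 to 42 and 165 to 638 calls in the same order, with the lowest of the last 5 without E6.5 embryo 2, E4.5 embryo 3, E6.5 embryo 2, E4.5 embryo 3 and E6.5 embryo 1. Where this left 1 E6.5 embryo, and in all comparisons with the single E5.5 embryo, that embryo was assumed to vary like the others. Nothing is read from the counts of the E5.5 comparisons.

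The fit with a replicate block on the embryo number, which also left out the E5.5 embryo, moved the calls from 294 to 644 for epiblast-like cells from E4.5 to E6.5. Leaving out the E5.5 embryo without the block gave 287. Same-numbered embryos shared no deviation (r = −0.004 and 0.02), so they share only a number. Without the embryo block the lineage comparisons gave 1683, 0 and 37 calls.

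None of the values with a changed sign passed the threshold; Fgf8 in endoderm-like cells kept its sign and passed without E4.5 embryo 5 (4.08, adjusted p = 0.0409). In the E6.5 lineages they were Fgfr2 by limma (−0.10), Etv4 at the higher resolution (0.54) and without the block (0.30), and, leaving out an embryo, Dusp6 (−0.305 to 0.0329) and Etv4 (−2.10 to 1.52). From E4.5 to E5.5 they were Dusp6 by limma (−0.86), and Fgf4 (0.25) and Fgfr1 (0.36) over all kept cells. From E4.5 to E6.5 in epiblast-like cells they were Fgfr1 at the higher resolution (−0.10) and leaving out an embryo (−0.371 to 0.455), and Fgfr2 over all kept cells (−1.68). From E5.5 to E6.5 they were Dusp6 (1.85) and Etv4 (0.75) by limma, Spry4 (−0.61) and Etv5 (−0.0529) with stricter cells, Spry4 at the higher resolution (−0.38) and leaving out an embryo (−0.22 to 0.29), and Fgf8 over all kept cells (−1.06). In endoderm-like cells they were Spry4 by limma (0.56), Fgf4 (−3.48) and Etv4 (0.0346) with Ward lineages, Etv4 with scaled clustering (0.18), and, leaving out an embryo, Spry4 (−0.71 to 0.0999), Fgf8 (−8.76 to 4.08) and Etv4 (−2.76 to 0.093). A pseudocount of 10 kept the sign of each lineage difference at E4.5.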
